A study of Pinus pinaster with 36 samples.

Results

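The nitrogen response of the stem was measured in seedlings of Pinus pinaster, the maritime pine of the western Mediterranean, by RNA sequencing as the difference between ammonium-fed and nitrate-fed plants, with the CO2 level of the air taken into account. The data were the 12 stem libraries of a series of 36 that also covers needles and roots. They formed 4 groups of 3 biological replicates: stems fed 8 mM ammonium at 720 ppm CO2, stems fed 8 mM ammonium at 400 ppm, stems fed 8 mM nitrate at 720 ppm and stems fed 8 mM nitrate at 400 ppm. The comparison set the 6 ammonium libraries against the 6 nitrate libraries and so estimated a single nitrogen effect over both CO2 levels. All seedlings were 2 months old, came from the Segura-Alcaraz provenance and had received 40 mL of their nitrogen solution each week for 1 month. Each library came from a pool of 12 seedlings, which averages over plants, and needles and roots were sequenced as well, by the series design from the same pools, although no label states this sample by sample. Ammonium was supplied as its chloride and nitrate as its potassium salt, so the nitrogen form and the accompanying ion cannot be told apart. No group without nitrogen was among the samples, so a difference does not say which of the 2 forms moved a transcript.

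Plants take up nitrogen mainly as nitrate or ammonium. Nitrate is reduced to nitrite and then to ammonium by nitrate reductase and nitrite reductase, and ammonium from either source enters amino acids through glutamine synthetase and glutamate synthase. Nitrate also acts as a signal that induces transporters and enzymes of its own assimilation, and many conifers grow well on ammonium. The stem joins root and needles through xylem and phloem, which carry inorganic nitrogen and amino acids between them.

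Levels are given as CPM, a transcript's counts scaled to a common library size with TMM factors (edgeR's correction for differences in library composition), which were 0.979 to 1.04 in stem. The deposited table held 224081 transcript identifiers and paired none with a gene name. Transcripts carry their identifiers only, without functions, and the label "stem" could not be checked against marker genes. As a check that needs no names, each stem library was ranked against the other 35. All 12 had their highest Spearman correlation with another stem library (0.921 to 0.979), against at most 0.842 with a needle library and at most 0.867 with a root library. Total counts were 76082457 to 111368507 per stem library. In 3 libraries (replicates 1 and 2 of ammonium at 400 ppm, replicate 1 of nitrate at 720 ppm) over 65% of the counts above 20 were even numbers and 50.6 to 57.9% of identifiers had no count, and they are called low-complexity libraries here. Of 4 library measures (total counts, identifiers at 0, even values and the share of the 50 most abundant transcripts), none passed the test between ammonium and nitrate stems (two-sided exact permutation test of 6 against 6, adjusted p from 0.444 to 0.55 over the 4). The means of all 4 were higher with ammonium. Identifiers at 0 averaged 39.3 ± 12.7% in ammonium and 31.5 ± 13.3% in nitrate stems, and even values 62.2 ± 9.33% and 57.5 ± 8.9% (SD, n = 6). A test of this size does not show that the libraries were alike. Transcripts that were at least 8 times higher in roots than in the other organs, without a nitrogen call in any organ, made up 0.078 ± 0.0128% of counts in ammonium stems and 0.0746 ± 0.00559% in nitrate stems (SD, n = 6), against 2.65% in roots. The same kind of list for needles held 0.527 ± 0.135% of counts in ammonium stems and 0.57 ± 0.228% in nitrate stems. The ranges of the nitrogen groups overlapped for both lists, which leaving out transcripts with a nitrogen call favours. In every organ only transcripts with a mean of at least 1 CPM in stem were tested for nitrogen. Members below that level could carry no call, so transcripts that respond to nitrogen in roots or needles may remain in the lists. Of the 835 transcripts of the root list, 94 had 0 counts in all ammonium stems and 46 in all nitrate stems.

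Of 64372 transcripts with a mean of at least 1 CPM in stem, 474 differed between ammonium and nitrate (0.736% of those tested, edgeR's quasi-likelihood test with Benjamini-Hochberg adjusted p under 0.05). Ammonium stems had higher levels of 233 of them (0.362%) and lower levels of 241 (0.374%), so the response was balanced in number. The sizes were alike at the median and differed among the largest changes. The 233 risen transcripts had a median log2 fold change of 0.88, and 92 of them changed over 2-fold (0.143% of all tested) and 1 over 8-fold (0.00155%). The 241 fallen transcripts had a median of -0.91, with 112 over 2-fold (0.174%) and 45 over 8-fold (0.0699%). These 45 lay in 11 runs of neighbouring or single identifiers, so they may stand for fewer genes. Their median level in ammonium stems was 0.134 CPM. The median over all transcripts tested was 0.00. In 1 risen and 3 fallen transcripts a nitrogen form had 0 counts. Set to the limit of 3 counts over that form's 6 libraries, they left both medians the same. Their bounds stayed far beyond the medians, so this could not have come out otherwise. In bulk tissue, fewer cells of a type and less RNA per cell cannot be told apart.

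**Figure D1:**
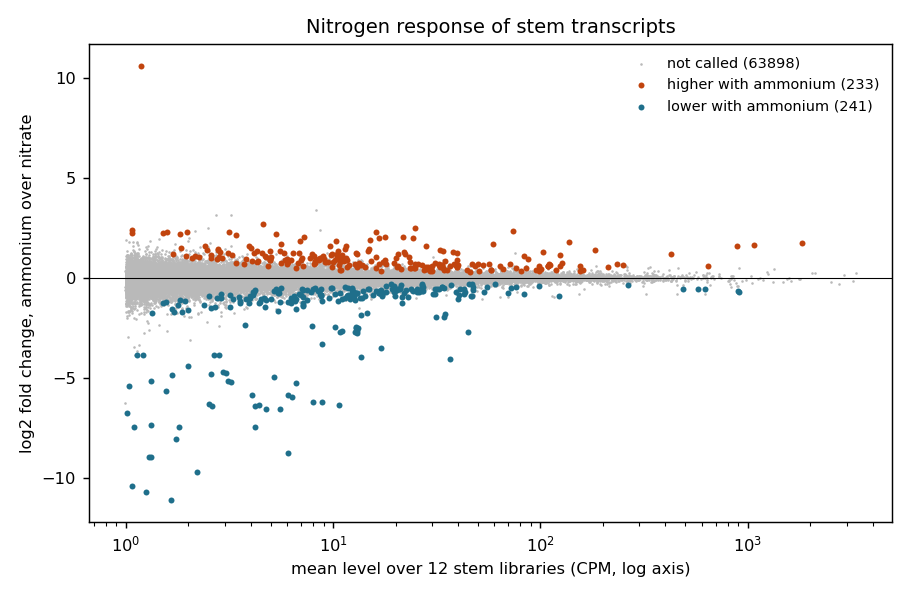
Each point is a transcript, with its mean level over the 12 stem libraries (CPM, log axis) on the x axis and the log2 fold change of ammonium over nitrate on the y axis; orange and blue mark the 233 risen and 241 fallen transcripts. Of the called changes over 8-fold, 45 lie below 0 and 1 above, and no called transcript at 100 CPM or more changed by over 2 log2 units.

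The called transcripts spanned the range of abundance. Mean levels of the risen transcripts ran from 1.07 to 1828 CPM with a median of 13.7 CPM, and 24 of them were at 100 CPM or more. The fallen transcripts ran from 1.01 to 902.2 CPM with a median of 10.2 CPM, and 7 were at 100 CPM or more. The median over all transcripts tested was 5.06 CPM. Together the risen transcripts took 1.31 to 1.77% of the counts of an ammonium stem library, against 0.726 to 0.826% of a nitrate one. The fallen transcripts took 0.5 to 0.604% in ammonium stems, against 0.87 to 1% in nitrate stems. These shares describe the lists and are no separate test, since the lists were chosen on the same libraries. The 6 ammonium libraries did not overlap the 6 nitrate libraries for 190 of the risen and 174 of the fallen transcripts. Over all transcripts tested, 1.25% were without overlap, 0.648% with ammonium higher and 0.603% with ammonium lower. Without the low-complexity libraries 390 transcripts were called, 284 of them among the 474.

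PpCO2_89503 and PpCO2_76727 were the risen transcripts with the largest fold changes among those of at least 5 CPM and without overlap. PpCO2_89503 was at 37.7, 44.5 and 26.5 CPM in ammonium stems at 720 ppm and 42.4, 35.5 and 66.6 CPM in ammonium stems at 400 ppm, against 3.21, 9.79 and 7.44 CPM in nitrate stems at 720 ppm and 7.71, 7.86 and 7.99 CPM in nitrate stems at 400 ppm. Every ammonium library lay above every nitrate library, as the choice required, and the lowest value was that of a low-complexity nitrate library. The rise was 2.51 on the log2 scale (SE 0.242, edgeR adjusted p = 0.000125). PpCO2_76727 was at 97.8, 121 and 87.4 CPM in ammonium stems at 720 ppm and 147.9, 108.6 and 176.3 CPM in ammonium stems at 400 ppm. In nitrate stems it was at 23.3, 27.1 and 23.8 CPM at 720 ppm and 22.1, 25.1 and 21.6 CPM at 400 ppm. The nitrate values were thus close together and the ammonium values spread over about a 2-fold range, again without overlap. The rise was 2.35 on the log2 scale (SE 0.147, edgeR adjusted p = 5.97e-06).

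PpCO2_139065 and PpCO2_178484 were the fallen transcripts chosen in the same way, and both were nearly absent from ammonium stems. PpCO2_139065 had 0 counts in all 3 ammonium libraries at 720 ppm and in replicate 2 at 400 ppm, and the other 2 held 0.0118 and 0.164 CPM, 15 counts in all. In nitrate stems it was at 12.8, 8.09 and 9.95 CPM at 720 ppm and 6.1, 9.73 and 26.1 CPM at 400 ppm. It changed by -8.75 on the log2 scale (SE 0.687, edgeR adjusted p = 2.05e-05). PpCO2_178484 was at 0.0852, 0.134 and 0.075 CPM in ammonium stems at 720 ppm and at 0, 0.292 and 0.0936 CPM at 400 ppm, 65 counts in all. Its nitrate values were 12.7, 7.74 and 10.1 CPM at 720 ppm and 9.16, 7.12 and 19.1 CPM at 400 ppm. It changed by -6.55 on the log2 scale (SE 0.483, edgeR adjusted p = 1.34e-05). Nitrate 400 ppm replicate 3 had the highest value of both transcripts. The calls of both were lost with limma-voom (adjusted p = 0.113 and 0.0655, their highest under any alternative), at log2 fold changes of -9.85 and -7.02, and that of PpCO2_89503 in the 720 ppm libraries alone (adjusted p = 0.115, its highest under any alternative). PpCO2_76727 kept its call under every alternative run (adjusted p up to 0.00296).

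**Figure D2:**
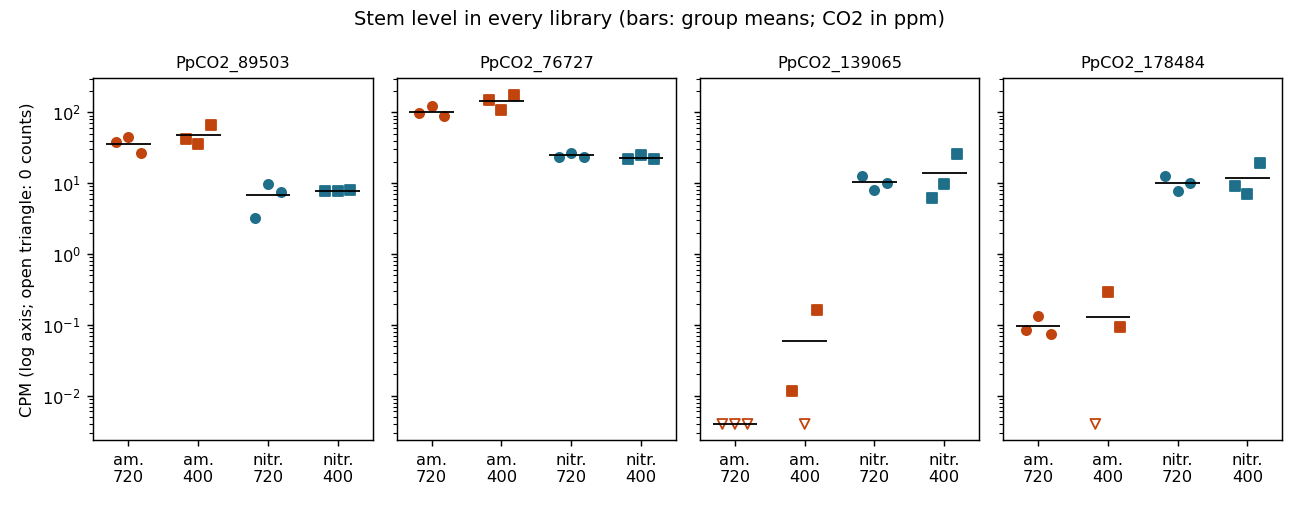
Level of the 4 transcripts in every stem library (CPM, log axis) by nitrogen form and CO2 level, with group means of 3 libraries as bars; open triangles, drawn at the foot of the axis, are libraries with 0 counts, and a bar there is a mean of 0. The ammonium libraries lie above all nitrate libraries for PpCO2_89503 and PpCO2_76727 and below them for PpCO2_139065 and PpCO2_178484. Absence of overlap was a condition of their choice.

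A few transcripts of low level were found with 1 nitrogen form alone. PpCO2_42010, the risen transcript over 8-fold, had 0 counts in all 6 nitrate libraries and 1252 counts over the ammonium libraries, at 4.52, 2.83 and 2.79 CPM at 720 ppm and 0, 1.04 and 3.01 CPM at 400 ppm. It was at least 384-fold higher in ammonium stems, taken against 3 counts over the nitrate libraries, although 1 low-complexity ammonium library also held none (edgeR adjusted p = 0.0355). In needles it was at 0.308 to 2.51 CPM in ammonium libraries and at 0 in all nitrate libraries, and in roots at 1.22 to 3.27 CPM with ammonium and 2 counts in all with nitrate. PpCO2_120732, PpCO2_150853 and PpCO2_198963 had 0 counts in all ammonium stems. Their nitrate levels varied widely between libraries: 0.265 to 6.52 CPM for PpCO2_120732, 0.297 to 7.13 CPM for PpCO2_150853 and 0.12 to 8.62 CPM for PpCO2_198963. The highest values of PpCO2_120732 and PpCO2_198963 were both those of nitrate 720 ppm replicate 1, a low-complexity library. The next highest were 3.08 and 2.33 CPM. They were at least 455-fold, 601-fold and 387-fold lower in ammonium stems by the same limit, with edgeR adjusted p of 0.0162, 0.0161 and 0.0291. The bounds rest on nitrate means that include nitrate 720 ppm replicate 1. With 0 counts in ammonium stems, the 3 passed the filter of 1 CPM through their nitrate libraries alone. PpCO2_42010 passed it through ammonium libraries alone. None of the 3 had a count in nitrate needles. In ammonium needles PpCO2_120732 and PpCO2_198963 had 0 counts as well and PpCO2_150853 had 2, so needles allow no comparison. All 3 were called lower in ammonium roots, with log2 fold changes of -7.1 for PpCO2_120732, -4.41 for PpCO2_150853 and -7.15 for PpCO2_198963. The limit covers counting error alone and treats counts as independent, whereas even values were in excess.

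The called transcripts were often neighbours by identifier number. With numbers up to 10 apart joined, the 474 formed 214 runs, of which 120 held a single transcript. The other 94 runs held 354 transcripts, 74.7% of those called, and in every one of these runs all called members moved in the same direction. The same shares were not computed over all transcripts tested, whose identifiers also lie close together. The 74.7% and the shared direction therefore describe the list only. Whether neighbouring identifiers are variants of a gene, members of a family or pieces of a transcript is not given in the sources used here, and reads could be shared between near-identical members. The number of genes behind the 474 calls is therefore not known. The runs below are those that hold a transcript named here, and a further 5 that were singled out after their values were seen, and their summed levels are a description.

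Among the risen runs, identifiers 151645 to 151649 held the highest level, with all 5 tested members called. Their summed level was 3661, 6986 and 4980 CPM in ammonium stems at 720 ppm and 7409, 6596 and 6654 CPM at 400 ppm, against 1705, 1842 and 1684 CPM in nitrate stems at 720 ppm and 2103, 1822 and 1807 CPM at 400 ppm. The lowest ammonium library was still above the highest nitrate library. PpCO2_151647, the most abundant member and the most abundant of all called transcripts, averaged 2833 ± 636.4 CPM in ammonium stems and 823 ± 85.5 CPM in nitrate stems (SD, n = 6). It rose by 1.77 on the log2 scale (SE 0.124, edgeR adjusted p = 8.35e-06). The run that holds PpCO2_76727 (76724 to 76731) had 6 of 8 tested members called and summed to 178.5 ± 44.8 CPM in ammonium stems and 39.3 ± 2.79 CPM in nitrate stems. All 5 tested members of the run of PpCO2_89503 (89499 to 89503) were called, at a summed 133.3 ± 36.5 and 29.7 ± 3.77 CPM in ammonium and nitrate stems. The run with the most members, 144701 to 144713, rose by less: its 12 called members, with log2 fold changes from 0.62 to 0.96, summed to 920.3 ± 85.4 CPM in ammonium stems and 570.3 ± 47.7 CPM in nitrate stems.

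Among the fallen runs, several held falls of over 8-fold. All 10 tested members of the run of PpCO2_178484 (178481 to 178490) were called, with log2 fold changes from -7.47 to -5.24. They summed to 1.1, 1.11 and 1.59 CPM in ammonium stems at 720 ppm and 1.6, 1.63 and 1.35 CPM at 400 ppm, against 99.9, 74.8 and 90.9 CPM in nitrate stems at 720 ppm and 56.8, 73.4 and 171.7 CPM at 400 ppm. The groups were far apart, and the ammonium libraries lay much closer together than the nitrate ones. All 9 tested members of the run 20580 to 20589 were called, at a summed 5.78 ± 2.35 CPM in ammonium stems and 135.3 ± 16.3 CPM in nitrate stems. The 5 members of the run 159915 to 159921 had 22 counts over all ammonium libraries and averaged 16.7 ± 7.39 CPM in nitrate stems, and the 2 members of the run of PpCO2_139065 had 23 counts and 14.1 ± 8.19 CPM. In the run 120581 to 120584, 3 of 4 tested members were called, at a summed 4.45 ± 1.03 CPM in ammonium stems and 49.4 ± 11.1 CPM in nitrate stems.

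Other fallen runs kept a clear level in ammonium stems. The 8 members of the run 143535 to 143542, all called, summed to 35.8 ± 4.07 CPM in ammonium stems and 226.3 ± 64.1 CPM in nitrate stems, with log2 fold changes between -2.74 and -2.48. The run 77955 to 77961 was the most abundant of the fallen runs. Its 5 called members of 7 tested summed to 2770 ± 401.9 CPM in ammonium stems and 4194 ± 531.3 CPM in nitrate stems, with log2 fold changes between -0.68 and -0.53.

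**Figure D3:**
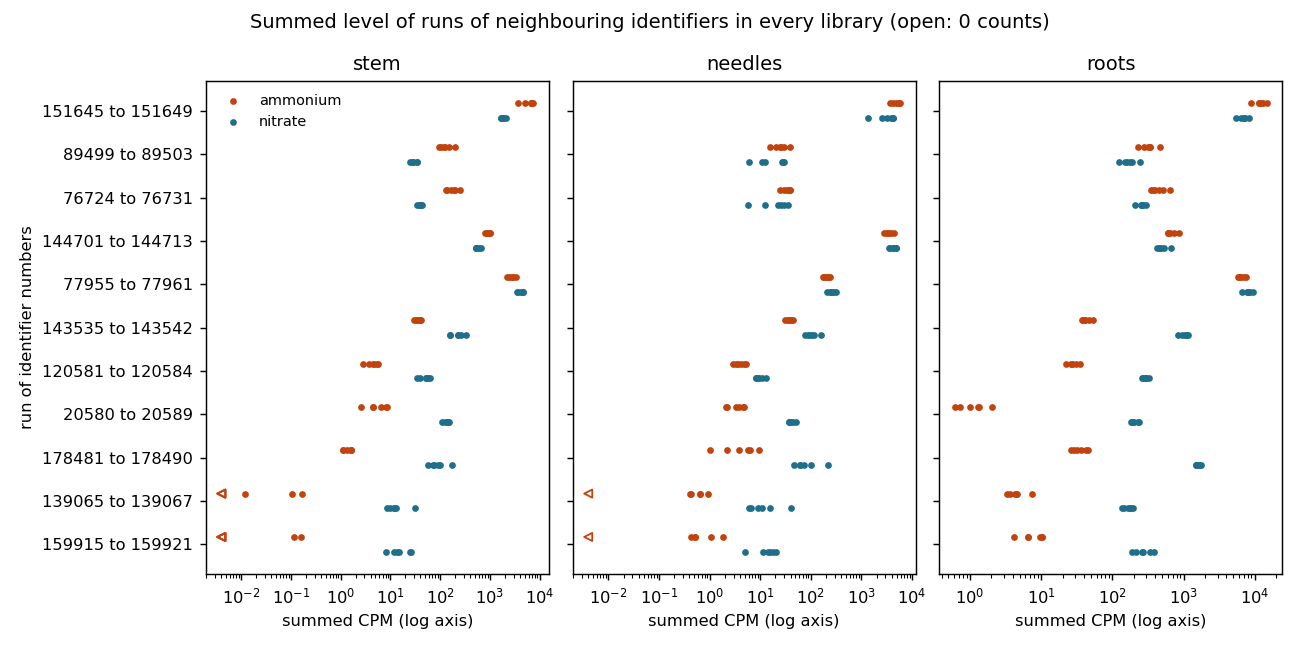
Summed level (CPM, log axis) of the stem-called members of 11 runs of neighbouring identifiers in each library of stem, needles and roots, with ammonium above nitrate in each run; open triangles are libraries with 0 counts, drawn at the left edge. In stem the colours do not overlap in any of the 11 runs, which summing only members called in stem favours. The gap is widest for the runs close to absent from ammonium stems. The x axes of the 3 organs differ in range.

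Whether a single nitrogen effect stands for both CO2 levels was tested by the difference between the effect at 720 ppm and the effect at 400 ppm. No transcript was called for this difference (0% of 64372, edgeR adjusted p under 0.05). At an unadjusted p under 0.05 there were 2717 transcripts (4.22%), DESeq2 called 21 and limma-voom 0. Without ammonium 400 ppm replicate 3 edgeR called 23, and without nitrate 720 ppm replicate 2 it called 4. The smallest adjusted p was that of PpCO2_29169, named after its values were seen. It was at 16.2, 15 and 14.7 CPM in ammonium stems at 720 ppm and 30.3, 32.1 and 31.4 CPM at 400 ppm, against 24, 22.1 and 25.8 CPM in nitrate stems at 720 ppm and 19.5, 18.8 and 14.5 CPM at 400 ppm. Ammonium was the lower form at 720 ppm and the higher at 400 ppm, without overlap of the 3 libraries each, and the difference of -1.48 on the log2 scale (SE 0.168) missed the threshold (edgeR adjusted p = 0.0828).

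Among the 474 called transcripts, the effect had the same sign at both CO2 levels for all 233 risen and all 241 fallen, which their choice on the pooled effect favours. Their median log2 fold change was 0.84 at 720 ppm and 0.86 at 400 ppm for the risen transcripts, and -0.98 and -0.93 for the fallen. A p that misses the threshold does not show that the effects were alike: the 95% interval of the difference had a median half-width of 0.61 log2 units for the risen and 0.67 for the fallen transcripts, and for 73 and 104 of them it reached a 2-fold difference.

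Each CO2 level was also fitted on its own 6 libraries, so that transcripts called at 1 level could be read in libraries that played no part in the call. At 720 ppm 63 transcripts were called (0.0979%) and at 400 ppm 83 (0.129%). The 13 transcripts higher with ammonium at 720 ppm were all higher at 400 ppm, with a median log2 fold change there of 1.9, and the 37 called higher at 400 ppm were all higher at 720 ppm, with a median of 1.41. The 50 called as fallen at 720 ppm were all lower at 400 ppm (median -4.69), and the 46 called lower at 400 ppm were all lower at 720 ppm (median -3.72). Over all transcripts, 50.7% were higher with ammonium at 400 ppm and 50.8% at 720 ppm.

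**Figure D4:**
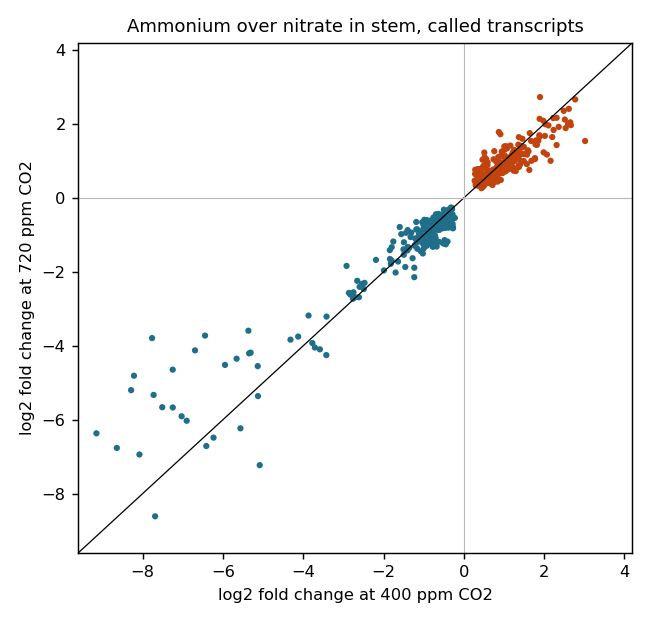
Log2 fold change of ammonium over nitrate at 720 ppm CO2 (y axis) and at 400 ppm CO2 (x axis) for 462 of the 474 called stem transcripts, leaving out 12 with no counts in a group or too few for a fold change; the line marks equal change. All points lie in the lower left or upper right, which the choice of the transcripts favours, and the scatter about the line is wide for the large falls, which rest on few ammonium counts.

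The same contrast was then read in needles and roots, whose libraries the stem fit did not use, although by the series design the organs shared pools of seedlings. For the same transcripts, ammonium and nitrate needles differed in 434 (0.674%, 260 higher or 0.404% and 174 lower or 0.27%) and roots in 13480 (20.9%, with 10.5% in each direction). Of the 233 transcripts risen in stem, 33 were called higher in needles and 186 in roots, none was called lower in needles and 4 were called lower in roots. Their median log2 fold change was 0.32 in needles and 0.71 in roots, where all transcripts tested had 0.00 and 0.01. Of the 241 fallen in stem, 70 were called lower in needles and 186 in roots, with medians of -0.38 and -0.85, and 1 was called higher in roots. The shares of the stem lists called in the same direction were thus 14.2% and 29% in needles and 79.8% and 77.2% in roots. Set against the other organs' own lists, they were 12.7% of the transcripts risen and 40.2% of those fallen in needles, and 2.75 and 2.77% of those in roots. Both other organs called 31 of the risen and 69 of the fallen stem transcripts, and neither called 41 and 53 of them among those fitted in both.

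Read the other way, the lists called in roots shifted little in stem. The 6753 transcripts higher with ammonium in roots had a median log2 fold change of 0.53 there and 0.10 in stem, and 69.7% of them were higher in stem. The 6727 lower in roots had medians of -0.43 in roots and -0.10 in stem, and 71.4% were lower in stem. Over all transcripts tested, 49.7% were higher with ammonium in stem and 50.3% lower. Those called in stem were 0.362% higher and 0.374% lower. Larger root changes were read in the same way. There were 9 transcripts over 8-fold higher in ammonium roots, with a median of 3.44 in roots and 1.36 in stem, and 8 of these were higher in stem, 2 with a call. In the other direction, 75 transcripts were over 8-fold lower in ammonium roots, and 74 of these were lower in stem, 55 with a call, at a median of -4.39 in stem and -4.99 in roots. All 31 transcripts over 8-fold lower in ammonium needles were called lower in stem, with a median of -6.33 in stem and -4.24 in needles. The 31 include neighbouring identifiers, so they may stand for fewer genes. The root and needle lists hold only transcripts with a mean of at least 1 CPM in stem. Large changes of transcripts scarcer in stem are not among them.

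The 45 transcripts over 8-fold lower in ammonium stems lay in 11 runs. Their median level was 0.134 CPM in ammonium stems and 5.26 CPM in nitrate stems, 0.247 and 2.99 CPM in ammonium and nitrate needles, and 0.985 and 20.3 CPM in ammonium and nitrate roots. All 45 were called lower in roots and 34 of the 43 fitted were called lower in needles. The exception in sign among those fitted was PpCO2_150853, with 2 counts in ammonium needles and 0 in nitrate needles. The run of PpCO2_178484 summed to 4.82 ± 3.15 CPM in ammonium needles and 94.4 ± 65.9 CPM in nitrate needles (SD, n = 6), and to 35.1 ± 7.43 and 1608 ± 110.5 CPM in ammonium and nitrate roots. Its nitrate mean in needles was close to that in stem, although the nitrate medians were 67.6 CPM in needles and 82.8 CPM in stem. In both organs nitrate 400 ppm replicate 3 was the highest library, at 223.7 CPM in needles and 171.7 CPM in stem. The ammonium mean of the run was higher in needles than in stem. CPM was scaled within each organ, so levels compare only roughly between organs. The run 143535 to 143542 was at 38.6 ± 4.87 and 107.4 ± 30.2 CPM in ammonium and nitrate needles and at 43.1 ± 5.87 and 1022 ± 111 CPM in ammonium and nitrate roots. The ammonium level of this run was thus similar in the 3 organs by that scaling, at means of 35.8 to 43.1 CPM, while its nitrate level differed widely between them.

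**Figure D5:**
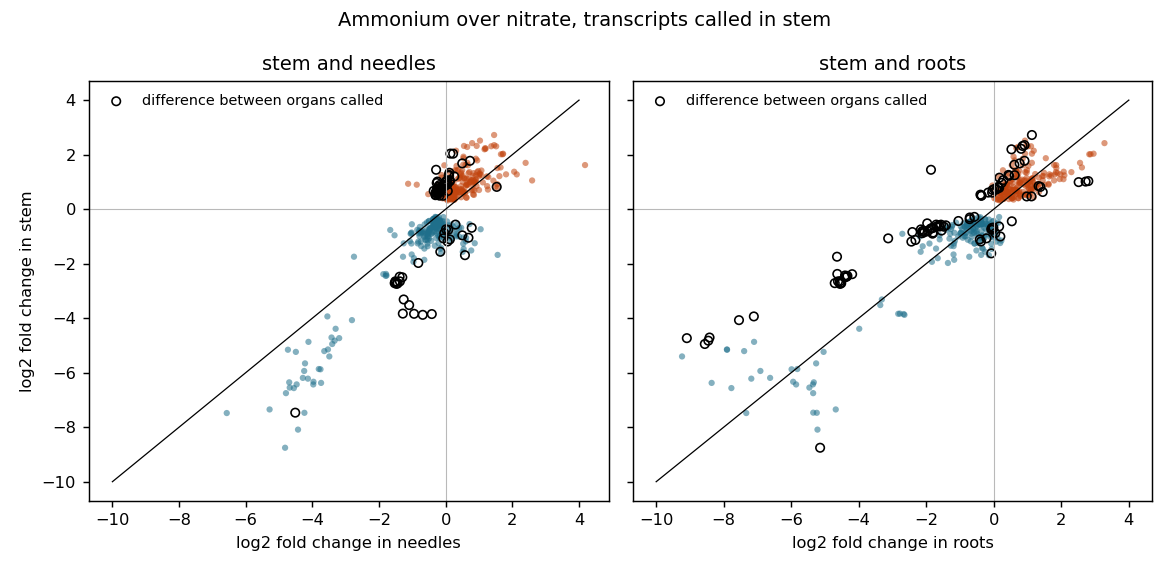
Log2 fold change of ammonium over nitrate in stem (y axis) against that in needles (left) and roots (right) for the transcripts called in stem, orange where risen and blue where fallen in stem, leaving out those with 3 counts or fewer over a nitrogen form in stem; the line marks equal change and open circles mark a called difference between the organs. The plotted falls over 8-fold in stem are falls in both other organs, and many of the smaller changes lie nearer to 0 in needles than in stem.

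The difference between the organs' responses was tested directly in a fit of all 36 libraries. The nitrogen effect in stem differed from that in needles for 137 transcripts (0.213%), 71 with a more positive (0.11%) and 66 with a more negative effect in stem (0.103%). It differed from that in roots for 1293 (2.01%), 758 more positive (1.18%) and 535 more negative in stem (0.831%). Of the 137, 74 were called in stem itself and 33 in needles. Of the 1293, 95 were called in stem and 1211 in roots, and the median absolute log2 fold change of these 1293 was 0.15 in stem and 0.71 in roots. Both counts fell with libraries left out by replicate number. Without replicate 1, 2 or 3 of every group the count against needles was 32, 4 and 27 and that against roots 686, 290 and 396, and without the low-complexity libraries, 3 of stem and 4 of needles, the count against needles was 33 and that against roots 1376.

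Against needles, PpCO2_120583 had the most negative called difference among transcripts with a stem mean of at least 5 CPM that were not already named. It was at 1.82 to 3.62 CPM in ammonium stems (median 2.85) and 21.5 to 39 CPM in nitrate stems (median 33.2). In needles it was at 1.86 to 3.46 CPM with ammonium (median 2.98) and 4.6 to 7.66 CPM with nitrate (median 5.74). The ammonium levels of the 2 organs overlapped, and the nitrate levels were higher in stem than in needles. The log2 fold change was -3.52 in stem (SE 0.197, edgeR adjusted p = 2.59e-06) and -1.1 in needles (SE 0.149, edgeR adjusted p = 0.00204), with a difference of -2.41 (SE 0.223) that stayed called under every alternative run (adjusted p up to 0.0052). PpCO2_89502, a neighbour of PpCO2_89503, was at 7.56 to 18.4 CPM in ammonium stems (median 11.4) and 2.44 to 3.06 CPM in nitrate stems (median 2.88), and at 2.25 to 4.44 CPM in ammonium needles (median 3.44) and 1.1 to 5.41 CPM in nitrate needles (median 2.9). The groups were apart in stem and overlapped in needles, and the difference was 1.9 (SE 0.379, edgeR adjusted p = 0.0188). The call did not hold when the low-complexity libraries were left out (adjusted p = 0.366) and without replicate 1 or 2 of every group (0.302 and 0.558), without a low-value filter (0.105), with filterByExpr (0.0707) or with limma-voom (0.204).

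The remaining transcripts named against needles were not called in stem or needles alone. PpCO2_167519 was at 19.2 to 49.3 CPM in ammonium stems (median 35.7) and 51.8 to 83.8 CPM in nitrate stems (median 58.1), against 9.41 to 51 CPM in ammonium needles (median 18.3) and 6.96 to 14.2 CPM in nitrate needles (median 8.63). Its log2 fold change was -0.84 in stem and 0.98 in needles, and the difference of -1.82 (SE 0.371, edgeR adjusted p = 0.023) was lost without replicate 1, 2 or 3 of every group (adjusted p of 0.0596, 0.239 and 0.327), without a low-value filter (0.133) and with filterByExpr (0.102). PpCO2_180362 was at 4.31 to 8.04 CPM in ammonium stems (median 5.41) and 3.25 to 5.8 CPM in nitrate stems (median 4.94), and at 0 to 0.624 CPM in ammonium needles (median 0.426) and 0.828 to 3.39 CPM in nitrate needles (median 1.83). Stem levels overlapped and needle levels did not. The difference of 2.51 (SE 0.496, edgeR adjusted p = 0.0176) was lost without replicate 1 or 2 of every group (adjusted p = 0.279 and 0.606), with limma-voom (0.35), without a low-value filter (0.105) and with filterByExpr (0.0722).

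Against roots, PpCO2_134931 had the most positive called difference under the same limits. It was at 8.56 to 21.1 CPM in ammonium stems (median 14.5) and 17.3 to 24.7 CPM in nitrate stems (median 22), and at 2.56 to 3.91 CPM in ammonium roots (median 3.02) and 48 to 72.9 CPM in nitrate roots (median 60.1). The nitrogen groups overlapped in stem and were far apart in roots. The difference of 3.8 was called (SE 0.246, edgeR adjusted p = 6.78e-12) and stayed called under every alternative run (adjusted p up to 3.89e-06). PpCO2_20582, of the run 20580 to 20589, fell in both organs. It was at 0 to 0.535 CPM in ammonium stems (median 0.37) and 8.8 to 12.6 CPM in nitrate stems (median 9.38), and at 0 to 0.0974 CPM in ammonium roots (median 0.0348; 23 counts in all) and 13.8 to 19.1 CPM in nitrate roots (median 17). The log2 fold change was -4.95 in stem (SE 0.467, edgeR adjusted p = 0.000106) and -8.56 in roots, with a difference of 3.61 (SE 0.602, edgeR adjusted p = 0.000416). The difference was lost with limma-voom (adjusted p = 0.278) and without replicate 3 of every group (0.054).

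PpCO2_108567 and PpCO2_121524 rose in ammonium roots and were not called in stem. PpCO2_108567 was at 3.7 to 6.97 CPM in ammonium stems (median 4.33) and 3.24 to 10.7 CPM in nitrate stems (median 7.47), and at 75.3 to 239.8 CPM in ammonium roots (median 141.6) and 13 to 96.2 CPM in nitrate roots (median 28). Its difference was -2.54 (SE 0.588, edgeR adjusted p = 0.0144), lost without replicate 2 or 3 of every group (adjusted p = 0.333 and 0.088), without a low-value filter (0.132) and with filterByExpr (0.103). PpCO2_121524 was at 2.42 to 6.9 CPM in ammonium stems (median 4.06) and 4.11 to 8.49 CPM in nitrate stems (median 6.81), and at 2.21 to 6.5 CPM in ammonium roots (median 3.49) and 0.817 to 1.55 CPM in nitrate roots (median 0.896). Its difference was -2.42 (SE 0.439, edgeR adjusted p = 0.00123), lost without replicate 2 of every group (0.0613). Among transcripts already described, the effect in stem differed from that in roots for PpCO2_76727 by 1.45 (SE 0.328, edgeR adjusted p = 0.0123) and for PpCO2_139065 by -3.56 (SE 0.901, edgeR adjusted p = 0.0283). PpCO2_76727 was at 237.9 to 437.9 CPM in ammonium roots and 131.8 to 192 CPM in nitrate roots, a smaller fold change at a higher level than in stem. PpCO2_139065 was at 2.46 to 6.56 CPM in ammonium roots and 106.4 to 150.5 CPM in nitrate roots, and its stem fold change rests on 15 ammonium counts.

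Stem transcripts whose effect was called as different from another organ were split by direction. Of the 233 risen in stem, 45 differed from needles, 44 with the larger rise in stem, and 34 from roots, 26 with the larger rise in stem. Of the 241 fallen, 29 differed from needles, all with the larger fall in stem, while 61 differed from roots, 47 with the smaller fall in stem. Choosing transcripts by their stem effect favours a larger effect in stem, and the last of these counts runs against that choice.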

How the data were processed

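Counts of RNA-seq reads per transcript identifier were deposited by the authors as raw counts in a single table. The submitters' processing notes name bcl2fastq; aligner, counter and transcript assembly are not given in the sources used here. The treatment text in the labels describes another root experiment, so groups came from titles, characteristics and the series design. Column names identified all 36 samples. Per the labels, groups hold 3 biological replicates, and pairs within a stem group differed far beyond counting noise (chi-square per degree of freedom 17.8 to 60).

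Transcripts with a mean of at least 1 CPM (count over column total) in the 12 stem libraries were kept, 64372 of 224081 (28.7%), holding 97.5% of stem counts. R 4.3.3, edgeR 4.0.16 (TMM, robust quasi-likelihood F-test, two-sided), limma 3.58.1 and DESeq2 1.42.0 were used. Models held CO2 level and nitrogen form within an organ (9 residual degrees of freedom in stem), their interaction (8), or separate terms per organ over 36 libraries (27). P-values were Benjamini-Hochberg adjusted over all transcripts tested and called under 0.05. Standard errors come from the fold change and its F statistic. Each organ's CPM uses TMM factors of its own fit. The models were tested on simulated counts of a fixed spread, with changes set only in transcripts of many counts. The simulation held no low-complexity libraries and no shared pools, so it does not cover these or levels near 0. Named transcripts are, per comparison, up to 2 in each direction with the largest called change, at a mean of 5 CPM or more and over 10 numbers apart, without overlap of groups for the stem comparison and not named before. Members, lists and rules were chosen with earlier results of these data known. Gene lists could not be matched to identifiers and were not run.

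The series design implies, without a label for each sample, that same-numbered libraries of different organs come from the same pool. Their deviations from group means correlated with r of 0.101 to 0.429 between stem and roots and 0.0376 to 0.196 between stem and needles (12 pairs each), so the pool served as a block in an alternative fit.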

Additional observations from a re-analysis of the deposited data

Results flagged for a closer look

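In 32 groups of 6 stem libraries examined for a library far from the rest, 6 had one, where chance flags about 1 in 20. Nitrate 720 ppm replicate 1 stood apart with 57.9% of identifiers at 0 counts and 75.3% even values, and with 3.21 CPM of PpCO2_89503, the lowest nitrate value. Nitrate 400 ppm replicate 3 stood apart with 26.1 CPM of PpCO2_139065 and 83.8 CPM of PpCO2_167519, the highest nitrate values of both. For PpCO2_139065 in ammonium stems, ammonium 400 ppm replicate 3 held 0.164 CPM, where the other libraries were at or near 0. PpCO2_89503 and PpCO2_139065 kept their calls in all refits that left out a single library.

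The nitrogen effect differed between organs by the test of the difference itself for 10 of the transcripts named. All but PpCO2_76727 and PpCO2_139065 were named because that difference was called, so the count follows from the choice. Several of these calls were lost under alternatives, as given above. Against needles, the difference in log2 fold change (stem minus needles) was 2.51 for PpCO2_180362, 1.9 for PpCO2_89502, -2.41 for PpCO2_120583 and -1.82 for PpCO2_167519. Against roots (stem minus roots) it was 3.8 for PpCO2_134931, 3.61 for PpCO2_20582, 1.45 for PpCO2_76727, -2.54 for PpCO2_108567, -2.42 for PpCO2_121524 and -3.56 for PpCO2_139065.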

How the results depend on the processing

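The count of 474 stem transcripts was 204 with a fold change over 2 required, 1191 with DESeq2, 63 in the 720 ppm and 83 in the 400 ppm libraries alone, and 314 to 473 with single libraries left out, the lowest without nitrate 400 ppm replicate 2. The interaction count of 0 was 1 without a low-value filter, 21 with DESeq2 and 0 to 23 with single libraries left out. In needles the count of 434 was 117 over 2-fold, 1294 with DESeq2, 232 without the CO2 term, 56 and 83 at 720 and 400 ppm alone and 235 to 476 with single libraries left out. In roots the 13480 calls were 1417 over 2-fold, 23500 without a filter, 23217 with filterByExpr, 2589 and 7195 at 720 and 400 ppm alone and 10525 to 15422 with single libraries left out. The 137 differences from needles were 72 over 2-fold, 65 without a filter, 67 with filterByExpr, 409 with DESeq2, 73 with limma-voom, 33 without the low-complexity libraries and 4 to 32 with a replicate number left out. The 1293 differences from roots were 402 over 2-fold, 662 without a filter, 722 with filterByExpr, 2177 with DESeq2 and 290 to 686 with a replicate number left out. The causes were not tested, beyond that fits on single CO2 levels or with libraries left out have fewer samples. The share of the 50 most abundant transcripts, 0.157 percentage points higher in ammonium stems, was -0.106 without the low-complexity libraries, a difference that passed no test. The 12 named results kept their sign in all 172 alternative values and their call in 146. Only 3 of the 12 kept their call under every alternative. Of the 172 values, 48 were stem effects with a single library left out, and all 48 kept the call.

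Within an organ the replicate number is not known to pair groups: between stem groups, 4 of 18 same-numbered pairs had deviations correlated over 0.1. With it as a replicate block the counts were 400 in stem, 0 for the interaction, 516 in needles and 14504 in roots. With the seedling pool as a block, the differences numbered 197 against needles and 1504 against roots, and no named call changed. At these depths, levels near 0 in ammonium stems rest on few counts.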
